A study of Mus musculus with 31 samples.

Results

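The thymus comparison covered 6 of the 27 samples of the series, 3 from homozygote GIT2KO mice and 3 from WT mice, all male, on a C57BL/6 background and 12 months old. The GIT2KO line is a gene-trap line, and all animals of both genotypes were fasted before tissue collection. Total RNA of each thymus was hybridised to an Illumina MouseRef-8 BeadChip, a 1-colour microarray of 25697 probes, and WT replicate 1 was run on 2 arrays whose values were averaged, so that 7 arrays gave 6 samples. Inguinal lymph nodes (ILN), mesenteric lymph nodes (MLN) and spleen of the same 6 animals, treated the same way and also 3 per genotype, were used only to ask where the thymus stood apart. A further GIT2KO tissue, which the labels call extra lymph nodes and the study's methods parathymic lobes, has no WT counterpart and entered only the estimate of the spread.

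The thymus is the organ in which T cells are made. Lymphoid precursors settle in its cortex, become CD4+CD8+ double-positive thymocytes that rearrange their T cell receptor genes, are selected on cortical and medullary epithelial cells, and leave as single-positive T cells. With age the organ involutes: its lymphoid and epithelial areas shrink while fat cells take up more of the space. GIT2 is a GTPase-activating scaffold protein that binds PIX exchange factors, PAK kinases and paxillin, and links G protein-coupled receptor signals to cell migration.

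Between 48% and 51.5% of probes were detected on the 7 thymus arrays, and the mean signal ran from 343.1 to 513.2. Levels are given as background-corrected, quantile-normalized log2 signal, and a difference is GIT2KO minus WT on that scale, with its standard error (SE) from a limma fit in which 9 groups of 3 shared an estimate of the spread. A transcript was called at a Benjamini-Hochberg adjusted p under 0.05 among the 15291 probes detected on 3 or more arrays of the series. The arrays bore out the tissue label: the mean of 16 double-positive thymocyte markers lay between 10.47 and 10.74 in the 6 thymus samples and between 7.28 and 7.70 in the 18 samples of the other tissues. The mean of 14 cortical epithelium markers lay between 9.21 and 9.56 in thymus and between 6.52 and 7.17 elsewhere. In a whole organ, fewer cells of a type and less RNA per cell cannot be told apart.

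Git2 itself was lower in every GIT2KO thymus. The gene lies at chr5:114727408-114774588 (GRCm38.p6) and was read by 3 probes. The probe with the highest mean level gave 6.62, 6.16 and 6.67 in GIT2KO replicates 1 to 3 and 8.51, 8.41 and 8.41 in WT replicates 1 to 3, a difference of -1.96 ± 0.25 (SE, n = 3 per group). The other 2 probes differed by -3.48 and -3.64, with GIT2KO levels near 5.5 and WT levels near 9.1, and the groups did not overlap for any probe. All 3 probes were detected in at least 2 of the 3 GIT2KO thymuses, so a low signal remained at each. The fall read by the latter 2 probes was 1.40 and 1.42 log2 units deeper than the mean fall in ILN, MLN and spleen (adjusted p = 0.0002205 and 0.007992). WT thymus had the highest level of these 2 probes among the 8 groups. At the probe with the highest mean level the thymus difference lay -0.81 from that of the other tissues, which did not pass (adjusted p = 0.1923).

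GIT2KO and WT thymus differed widely. Of 15291 transcripts, 2640 (17.3%) were called, 1351 higher and 1289 lower in GIT2KO, and 473 rises and 253 falls exceeded 2-fold. The values of the 3 GIT2KO samples did not overlap with those of the 3 WT samples for 39.3% of all tested transcripts. Counted by gene, with each gene read by its brightest probe, 6.96% of 10496 genes rose and 9.17% fell, and the median difference over these genes was -0.05. The first principal component of the 6 samples held 60.9% of the variance and separated the genotypes, with GIT2KO samples between -39.8 and -23.5 and WT samples between 22.9 and 42.4. WT replicate 3 and GIT2KO replicate 2 lay at the ends. Without WT replicate 3 the number of called transcripts was 1299, without GIT2KO replicate 2 it was 1341, without WT replicate 2 it was 1491 and without GIT2KO replicate 1 it was 1664. The 2 arrays of WT replicate 1 differed by an SD of 0.205 log2 units over probes, against 0.343 to 0.434 between samples of 1 genotype and 0.49 to 0.719 between genotypes.

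The same comparison called 2.45% of transcripts in ILN, 2.16% in MLN and 25.1% in spleen. Only 87 transcripts were called with 1 sign in all 4 tissues. To ask what was particular to the thymus, the thymus difference was set against the mean difference of ILN, MLN and spleen in the same fit. This difference of differences passed for 165 transcripts (1.08%), and 141 of them (0.922%) were also called in thymus with the same sign, 65 higher and 76 lower in GIT2KO. Thus 5.34% of the transcripts called in thymus differed in this way from the other tissues, and for the other 2499 calls no such difference was shown. Of the 141, 44 differed from each of the 3 tissues taken singly. Blocking on the animal, which the labels identify across tissues, raised the count of 165 to 323. Without GIT2KO replicate 2 of the thymus the counts of 165 and 141 became 95 and 80, and without GIT2KO replicate 3 of the thymus they became 249 and 225.

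**Figure D1:**
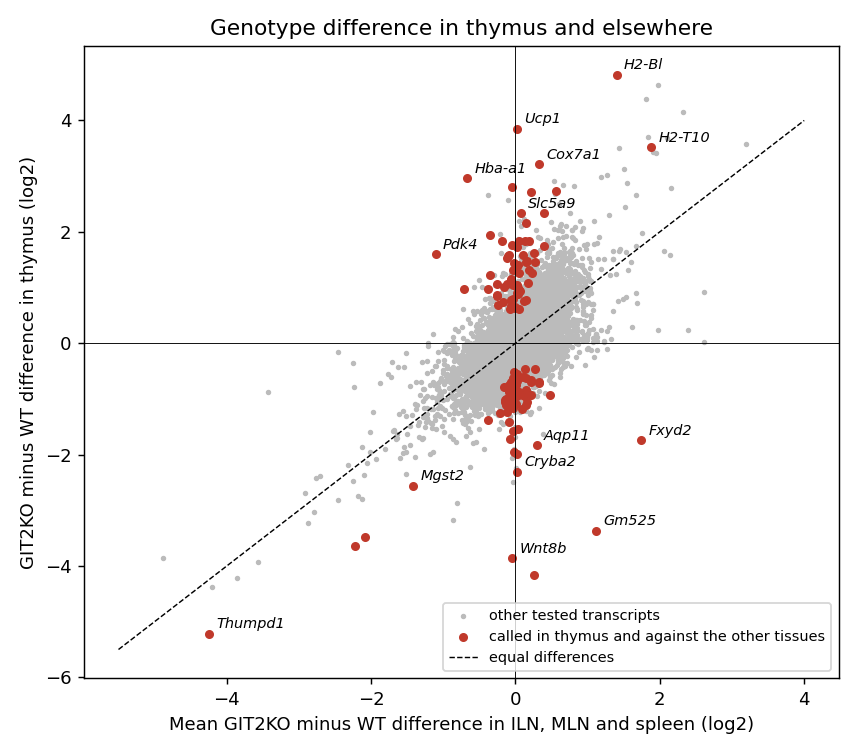
GIT2KO minus WT difference in thymus (vertical axis, log2) against the mean of the differences in ILN, MLN and spleen (horizontal axis, log2) for 15291 transcripts, each a point, with the 141 transcripts called in thymus and against the other tissues in red and the dashed line marking equal differences. Thumpd1 is low on both axes, whereas Wnt8b, Ucp1, Gm525 and Fxyd2 lie far from the dashed line.

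The 141 transcripts differed in where they were detected. Of them, 47 were not detected in any of the 18 samples of the other tissues (15 higher and 32 lower in GIT2KO thymus). For these 47 no difference could be measured in the other tissues, so their difference of differences largely repeats that of thymus. Another 48 were detected in all 18 (26 higher, 22 lower). For 61 of the 141 the mean difference in the other tissues had the opposite sign. By gene, 90 of 10496 (0.857%) were called in this way, 41 higher and 49 lower.

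Wnt8b, a secreted Wnt ligand best known from the developing forebrain, was detected in WT thymus alone among the 8 groups. Its level was 8.65, 8.86 and 8.53 in WT thymus and 4.77, 4.71 and 4.97 in GIT2KO thymus, where no array detected it. The fall was at least 10.1-fold, where the undetected group was set per array at the lowest detected signal or at its own value if higher. In ILN, MLN and spleen the gene lay between 4.58 and 4.70 in the means of both genotypes, and the difference of differences was -3.82 ± 0.13 (SE, adjusted p = 3.074e-16).

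Gm525, a predicted gene, fell in thymus at both of its probes. Its brighter probe gave 7.53, 7.59 and 7.76 in GIT2KO thymus against 10.91, 11.22 and 10.84 in WT, a difference of -3.37, while in ILN the means were 7.67 ± 0.37 in GIT2KO and 5.60 ± 0.12 in WT (SD, n = 3 each), a rise of 2.07, and it rose by 0.83 in spleen. The second probe differed by -4.16 in thymus but did not pass in ILN (0.52, adjusted p = 0.1979), MLN or spleen. The difference from the other tissues was -4.48 for the first probe and -4.42 for the second (adjusted p = 3.802e-11 and 1.089e-12).

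Fxyd2, the gamma subunit that modulates the sodium-potassium ATPase, fell in thymus and rose in other tissues at its brightest probe only. This probe was 7.52, 7.12 and 7.75 in GIT2KO thymus and 9.05, 9.32 and 9.26 in WT thymus, a fall of 1.75, whereas it rose by 2.51 in MLN and 1.57 in spleen and differed by 1.15 in ILN (adjusted p = 0.05975). The second probe fell by 1.54 in thymus (adjusted p = 0.003057) and by 1.31 in ILN, was at -0.04 in spleen and did not pass against the other tissues (adjusted p = 0.09352). The third was not detected in thymus, at a difference of 0.23 (adjusted p = 0.6371), and rose by 2.49, 2.52 and 2.17 in ILN, MLN and spleen.

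Aqp11, an aquaporin of intracellular membranes, was 9.69, 9.39 and 9.55 in GIT2KO thymus and 11.44, 11.38 and 11.31 in WT. Group means in the other tissues stayed between 5.42 and 6.04. This was a fall of 1.83. Its second probe was not detected in GIT2KO thymus and fell at least 3.33-fold, and both probes differed from the other tissues. Cryba2, a lens crystallin, was 5.52, 5.65 and 5.72 in GIT2KO thymus and spread from 7.06 to 8.86 in WT. No sample of ILN, MLN or spleen detected it. Scnn1g, the gamma subunit of the epithelial sodium channel, fell by 1.57 and was likewise undetected in ILN, MLN and spleen. Spink8, a serine protease inhibitor, was not detected in GIT2KO thymus and fell at least 1.83-fold. Its WT values were 7.60, 6.03 and 4.99, of which the last was also below detection.

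The remaining falls by size against the other tissues were in Siglech, a receptor of plasmacytoid dendritic cells (-1.72 in thymus), Fbxo27, an F-box protein that recognises glycoproteins (-1.41), Msln, the mesothelial surface protein mesothelin (-1.10), Gbp5, an interferon-induced GTPase (-1.06), and Mgst2, a microsomal glutathione transferase. Siglech was 5.81, 6.22 and 6.91 in GIT2KO thymus and 7.86, 7.60 and 8.66 in WT thymus, and its second probe, near background, differed by -0.15. Msln overlapped between the genotypes at 5.71 to 6.12 in GIT2KO and 5.95 to 7.77 in WT. For Mgst2 the differences were -2.56 in thymus, -2.14 in ILN, -1.17 in MLN and -0.96 in spleen, and the test of thymus against ILN alone did not pass (adjusted p = 0.6058).

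Among the genes that rose in thymus against the other tissues, 4 were class I MHC genes, a family that presents peptides to CD8+ T cells. H2-Bl gave 9.59, 9.63 and 9.57 in GIT2KO thymus and was not detected on any WT array of the 4 tissues, and its rise in thymus was at least 18.3-fold. It also rose in ILN, MLN and spleen, by 1.11, 1.81 and 1.28, and the thymus exceeded their mean by 3.42 ± 0.17 (SE, adjusted p = 6.934e-13). H2-T10, a non-classical class I gene, rose from 8.79, 9.01 and 8.48 in WT to 12.55, 12.06 and 12.22 in GIT2KO, 1.64 beyond the other tissues. H2-K1, a classical class I gene, gave 9.50, 8.95 and 9.21 in GIT2KO and 7.85, 7.60 and 8.29 in WT, a rise of 1.31, but its second probe differed by -0.21 (adjusted p = 0.6995). H2-Q2, named after its values were seen, rose by 0.91, from 6.88, 7.24 and 6.17 to 7.83, 7.64 and 7.55. Class I genes are near-identical in long stretches, so a probe may read more than its own gene, and the identity of these signals is uncertain. The substrain of the WT mice is not given in the sources used here, so for these and all other genes the loss of GIT2 and other genetic differences between the lines cannot be told apart. Of 14 class I and antigen-processing genes on the list, 3 rose and 4 fell, with a median of 0.10. The falls were in the transporter genes Tap1 (-0.82) and Tap2 (-0.89), the immunoproteasome subunit Psmb9 (-0.54) and H2-M3 (-0.68).

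Slc5a9, a sodium-dependent sugar transporter, was detected in thymus but in no sample of ILN, MLN or spleen. It gave 9.91, 9.39 and 9.70 in GIT2KO and 7.05, 7.51 and 7.45 in WT, and the groups did not overlap. The rise of 2.33 exceeded the near-zero differences of the other tissues by 2.25 (adjusted p = 6.224e-10). Since both genotypes lay below detection there, this excess largely repeats the thymus difference.

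**Figure D2:**
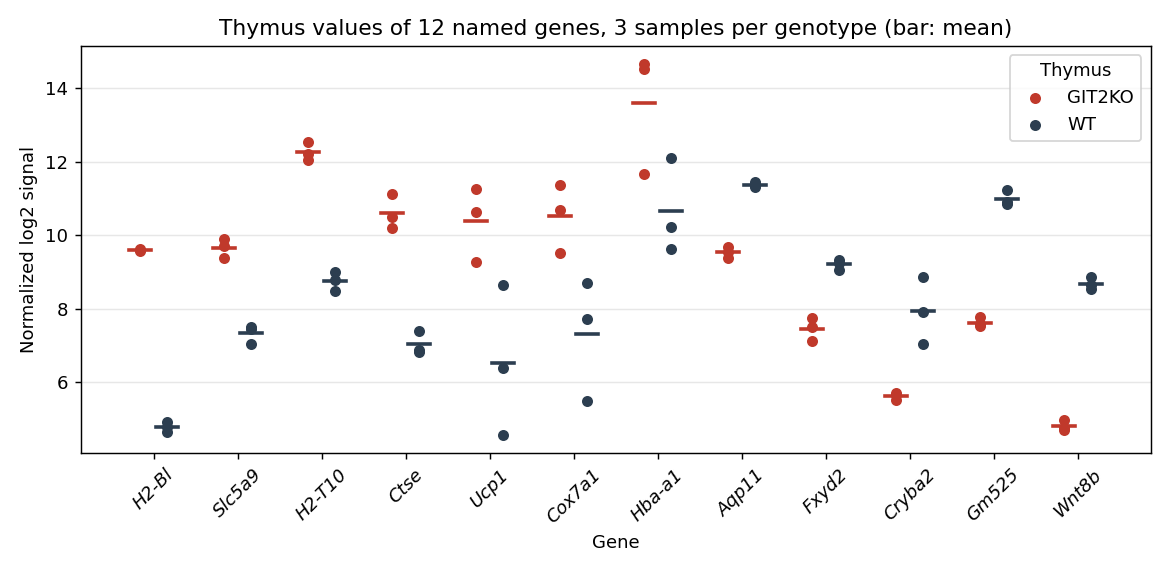
Normalized log2 signal (vertical axis) of 12 named genes in the 3 GIT2KO and 3 WT thymus samples, each a point, with bars for group means. H2-Bl, Slc5a9, Aqp11, Gm525 and Wnt8b show narrow groups that lie far apart, whereas Ucp1, Cox7a1 and Hba-a1 are widely spread within each genotype.

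Most other rises by size against the other tissues were spread widely over the GIT2KO samples. Ucp1, which uncouples respiration in brown fat, was not detected in ILN, MLN or spleen and differed by 3.85 in thymus. Its levels there were 10.64, 11.27 and 9.27 in GIT2KO and 6.38, 8.66 and 4.58 in WT. The respiratory chain subunit Cox7a1 rose by 3.21, the fatty acid carrier Fabp3 by 2.81, the glycerol phosphate dehydrogenase Gpd1 by 2.73, the small GTPase Rasl12 by 2.16 and the acyl-CoA thioesterase Acot11 by 1.83. For Pdk4, the kinase that switches off pyruvate dehydrogenase, GIT2KO levels of 9.67, 9.71 and 7.53 overlapped with WT levels of 7.23, 8.34 and 6.54, and the gene fell by 1.53 in spleen and differed by -1.56 in ILN (adjusted p = 0.1305). Hba-a1, an alpha globin, gave 14.52, 14.65 and 11.67 in GIT2KO and 10.23, 12.11 and 9.62 in WT, again with overlap. In spleen this probe lay between 14.54 and 14.65 in all samples, at the top of the normalized scale, so that no spleen difference could be measured and its difference from the other tissues is not an exact value. Kng1, which encodes kininogen, rose by 1.84. The pseudogene Pisd-ps2 was narrow in both genotypes, at 8.64, 8.64 and 8.28 in GIT2KO and 6.40, 6.92 and 6.41 in WT, a rise of 1.95, and it fell by 1.38 in spleen (adjusted p = 0.008306).

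With the adipocyte list mean added to the fit, Ucp1 differed by 2.25 (adjusted p = 0.0546), Pisd-ps2 by 1.77 (adjusted p = 0.053) and Pdk4 by -0.20 (adjusted p = 0.855), and Cox7a1, Fabp3, Rasl12, Acot11, Hba-a1, Kng1 and H2-Q2 also missed the threshold. Gpd1 is itself on the adipocyte list. The list mean did not overlap between the genotypes, so that list mean and genotype could be separated only in part. H2-Bl, H2-T10, H2-K1, Slc5a9, Wnt8b, Gm525, Fxyd2, Cryba2, Aqp11, Spink8, Scnn1g, Fbxo27 and Mgst2 kept theirs, while Siglech, Msln and Gbp5 did not. Beyond the genes named by size, 64 more were called in both contrasts, 28 higher and 36 lower, with differences of differences from 0.498 to 1.7 in size. Chosen after their values were seen, Cbr3, a carbonyl reductase, rose from 8.33, 7.90 and 8.18 to 9.75, 9.99 and 10.16, and Tbx19, a T-box factor of pituitary cells, fell from 5.79, 6.29 and 5.75 to below detection. Serpinb3d rose by 1.11 and the stromal antigen Cd248 by 1.75.

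**Figure D3:**
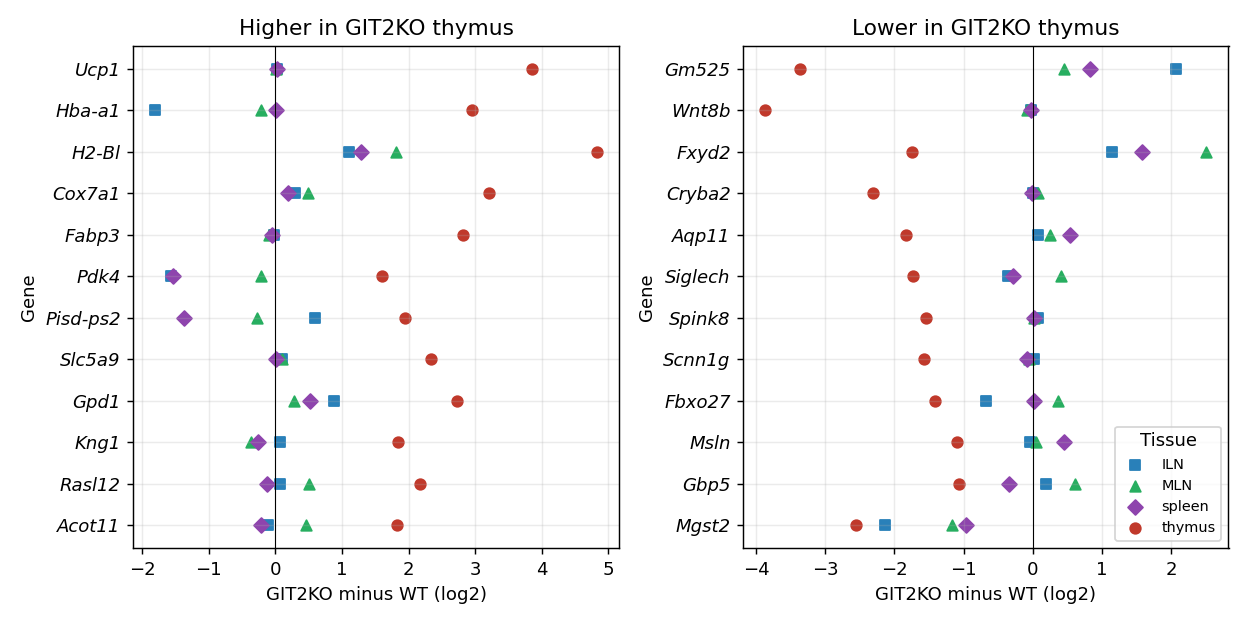
GIT2KO minus WT difference (horizontal axis, log2) in thymus, ILN, MLN and spleen for the 12 genes per direction with the largest thymus difference against the other tissues. The thymus point is the outermost in each row, close to ILN for Mgst2, and Gm525, Fxyd2, Pdk4 and Pisd-ps2 have spleen differences that passed with the opposite sign.

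Several of the largest thymus falls were also present in the other tissues. Thumpd1, a tRNA-modifying factor, gave 10.08, 9.85 and 9.94 in WT and was not detected in GIT2KO thymus, a fall of at least 24.5-fold, with differences of -4.05, -3.38 and -5.31 in ILN, MLN and spleen. It was not detected in GIT2KO spleen either, so the depth of both falls is only bounded, and the test of thymus against spleen did not pass (adjusted p = 0.8877). Trim30a and Trim30d, interferon-induced ubiquitin ligases that neighbour each other on chromosome 7, fell at least 8.73-fold and 3.74-fold from WT levels of 9.01, 7.50 and 8.89 and of 7.30, 6.82 and 7.61. 4933427D14Rik fell by 3.23, Twistnb, an RNA polymerase I subunit, by 3.03 and the zinc finger gene Zfp52 by 2.80, all with no overlap. Trim30a, Trim30d, 4933427D14Rik, Twistnb and Zfp52 each fell by more than 1.5 log2 units in each other tissue.

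Ctse, the endosomal protease cathepsin E, rose in all 4 tissues, in thymus from 7.41, 6.88 and 6.83 to 10.50, 10.21 and 11.12, and it rose by 3.76, 3.79 and 2.03 in ILN, MLN and spleen. Bpifa1, a secreted airway epithelial protein, was uneven: it was 9.37 and 9.85 in WT replicates 1 and 3 and 4.64 in WT replicate 2, against 4.71 to 6.00 in GIT2KO. Tmem108, a membrane protein of endosomes, was 9.01, 8.85 and 9.10 in WT and 7.13, 8.19 and 4.95 in GIT2KO.

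Adipocyte genes made up much of the rest of the upper end. Of 19 tested members, 15 rose and none fell, with a median of 2.03, against medians of 0.88 in ILN, 0.41 in MLN and 0.54 in spleen. Of the 15, 2 differed from the other tissues, Gpd1 and the adipocyte transcription factor Cebpa. The mean of the list was 9.46, 10.27 and 8.69 in GIT2KO replicates 1 to 3 and 7.72, 7.98 and 6.25 in WT replicates 1 to 3. WT replicate 3 was the lowest thymus sample for 17 of the 19 genes and GIT2KO replicate 2 the highest for 18. Thrsp, a lipogenic regulator, differed by 4.38, Scd1, a fatty acid desaturase, by 2.68 and Dgat2, which makes triglyceride, by 2.78, while Car3 (3.68) and Cidec (2.14) missed the threshold. The adipocyte hormone Adipoq rose by 2.98 at an adjusted p of 0.0433, and without WT replicate 3 its difference was 1.57 (adjusted p = 0.327). With the list mean added to the fit, 442 transcripts were called in thymus in place of 2640, 418 of them among the 2640.

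Of 13 brown fat genes, 9 rose and none fell, with a median of 1.18, and medians in ILN, MLN and spleen lay between -0.06 and 0.04. The list mean was 8.76, 9.39 and 7.95 in GIT2KO thymus. It was also high, at 9.93, 8.51 and 9.17, in the GIT2KO parathymic lobes, which have no WT counterpart. Cidea, a lipid droplet protein, rose by 3.69 and Cox8b, a muscle and brown fat cytochrome oxidase subunit, by 2.67. Cidea also differed by 2.11 in ILN and 2.66 in MLN without passing. Ppargc1a, the coactivator of mitochondrial biogenesis, was 5.83, 6.38 and 5.50 in GIT2KO and 5.59, 6.26 and 5.57 in WT and did not pass (adjusted p = 0.883).

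**Figure D4:**
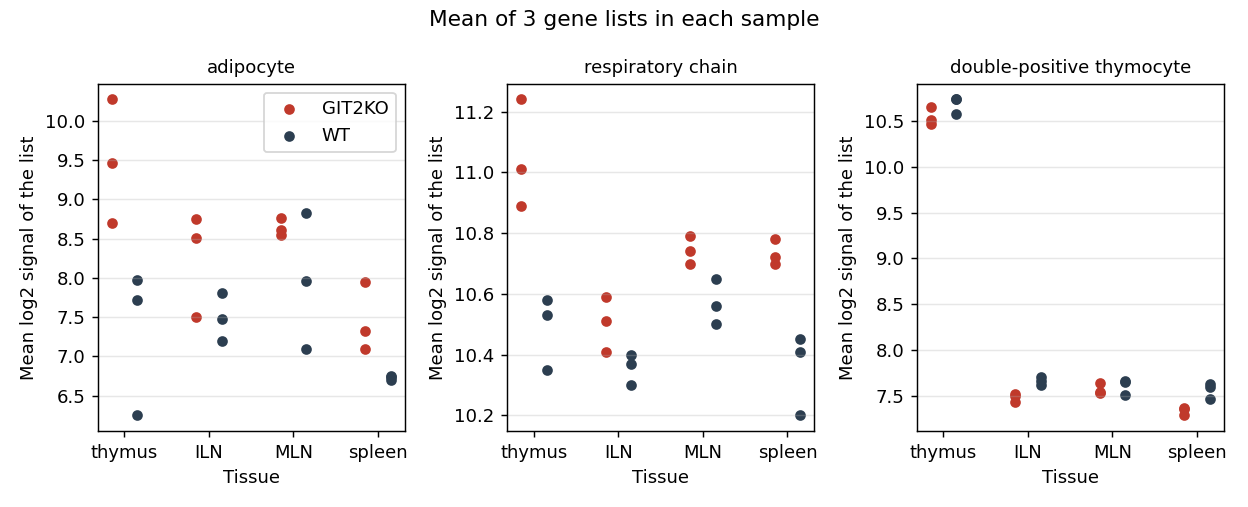
Mean log2 signal (vertical axis) of the adipocyte, respiratory chain and double-positive thymocyte lists in each of 24 samples by tissue, with GIT2KO in red and WT in dark blue. In thymus the adipocyte and respiratory chain means are higher in each GIT2KO sample than in any WT sample, and the double-positive thymocyte means overlap. The respiratory chain means are separated in the same direction in ILN, MLN and spleen, and the adipocyte means in spleen.

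Mitochondrial genes rose with them. Of 47 respiratory chain genes 29 rose and 1, Atp5e, fell by 0.86, with a median of 0.53. The list mean was 11.01, 11.24 and 10.89 in GIT2KO against 10.58, 10.53 and 10.35 in WT. The rise was not confined to thymus: the medians were 0.15 in ILN, 0.11 in MLN and 0.42 in spleen. In each of these tissues, too, the list mean was higher in every GIT2KO sample than in any WT sample. Within this list, which does not hold the muscle and brown fat forms Cox7a1 and Cox8b, the largest rise was in Atp5pb, a stalk subunit of ATP synthase, at 1.27. The cytochrome c1 gene Cyc1 rose from 9.47, 9.41 and 9.25 to 10.21, 10.72 and 10.14. In fatty acid oxidation 10 of 16 genes rose and none fell, with a median of 0.83 in thymus and medians of -0.06 to 0.11 elsewhere. Acaa2, the thiolase of the last step, rose by 1.91, Eci1, an enoyl-CoA isomerase, by 1.48 and Etfdh, which passes the electrons to ubiquinone, by 1.23. No gene on these 2 lists passed the test against the other tissues, which Cox7a1 did. The adipocyte list was higher in the same samples.

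In cholesterol synthesis 6 of 14 genes rose and none fell, with a median of 0.48, against 0.33 in ILN, 0.54 in MLN and 0.15 in spleen. Nsdhl, a sterol dehydrogenase that no WT array detected, rose at least 1.85-fold, Cyp51 by 0.89, Sqle, which oxidises squalene, by 0.86 and Sc5d by 0.85. With the adipocyte list mean in the fit, Sc5d remained called and the other 5, Hmgcs1, Sqle, Fdps, Cyp51 and Nsdhl, did not. The differences in that fit were 1.09 for Sc5d, 1.004 for Cyp51, 0.95 for Nsdhl, 0.91 for Sqle, 0.71 for Fdps and 0.07 for Hmgcs1. The list mean did not overlap between the genotypes, so this fit could separate list mean and genotype only in part. The part of fat in these rises was not tested.

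Most thymocyte genes did not pass. Of 16 double-positive thymocyte genes none rose and 2 fell, Aqp11 and Cd1d1, a lipid-presenting molecule that fell from 9.80, 9.81 and 9.91 to 8.65, 8.63 and 8.43, and the median was -0.01. Rag1, which cuts DNA in receptor rearrangement, was 12.00, 12.18 and 12.17 in GIT2KO and 12.19, 12.07 and 12.16 in WT, a difference of -0.03 ± 0.21 (SE). Cd8b1 gave 14.28 to 14.36 in GIT2KO and 14.30 to 14.44 in WT. For Cd4 the difference was -0.01 ± 0.26 (SE) with overlapping values. Cd3e and Cd3g, subunits of the T cell receptor complex, were not called in thymus, at -0.04 and 0.43, but fell by 1.09 and 1.12 in spleen, and their thymus differences lay 0.65 and 1.10 above the mean of the other tissues (adjusted p = 0.03707 and 0.01281).

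Among 21 genes of T cell receptor signalling 1 rose and 3 fell. Probes disagreed for 2 of these. The brightest probe of Cd247, the zeta chain of the receptor, rose from 9.54, 9.01 and 8.88 to 10.70, 10.38 and 10.47, while the other 2 differed by -0.43 and -0.54. The brightest probe of Zap70, the kinase that zeta recruits, fell by 0.37 at an adjusted p of 0.0496, while the other 2 differed by -0.28 and 0.84. No direction is given for either gene. Vav1, an exchange factor, fell by 0.54. In the early progenitor list Notch1 fell by 0.55, its target Hes1 rose by 0.78 and 14 of 16 genes did not pass.

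Most genes of the thymic epithelium did not pass. Of 14 cortical genes only Cd83 passed, at 0.51, with a median of 0.27; Prss16, the thymic serine protease of cortical epithelium, was 10.27, 10.19 and 9.86 in GIT2KO and 10.13, 9.62 and 9.74 in WT. Of 16 medullary genes only Trp63, the p63 regulator of stratified epithelia, passed, falling from 10.75, 10.51 and 10.66 to 10.02, 10.09 and 9.91. Aire, which drives tissue-restricted genes in medullary epithelium, was 7.15, 7.38 and 8.24 in GIT2KO and 8.10, 7.96 and 9.13 in WT, with overlap (difference -0.81, adjusted p = 0.167), and its second probe fell by 0.92 (adjusted p = 0.02454).

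Genes of regulatory, cytotoxic, dendritic and B cells are given beside the 9.17% of all genes that fell. Of 15 regulatory T cell and checkpoint genes 4 fell and none rose, with a median of -0.55: the inhibitory receptors Ctla4 (8.00, 7.28 and 7.85 in WT to 6.05, 5.35 and 6.75) and Lag3 (-1.10), the costimulator Icos (-0.89) and Tnfrsf4 (-1.49). Foxp3 was 6.33, 5.71 and 7.14 against 7.03, 6.70 and 7.12 and did not pass. Of 13 NK and cytotoxic genes 3 fell, the largest in Il2rb, the shared receptor chain for interleukins 2 and 15, by 1.16. Of 16 dendritic cell genes 4 fell, among them Siglech, Clec10a (-1.12) and the transcription factor Irf8 (-0.65), and 5 were not detected in thymus. Of 12 B cell genes 2 fell, the inhibitory receptor Cd22 by 0.91 at its brightest probe, with the other 2 at -0.04 and -0.61, and the transcription factor Spib by 0.79. Without WT replicate 3 neither passed (adjusted p = 0.249 and 0.206), nor without GIT2KO replicate 1 or 2, and Cd22 also failed without WT replicate 1. The B cell list mean overlapped at 6.41 to 7.63 in GIT2KO and 6.89 to 7.82 in WT. These 4 lists had their highest mean in WT replicate 3, which also had the lowest adipocyte mean. All 4 medians were also negative in spleen, whereas the B cell median was 0.32 in ILN and the dendritic and NK medians were 0.10 and 0.02 in MLN. In the test against the other tissues only Siglech and Ly6d, both in the dendritic list, passed.

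**Figure D5:**
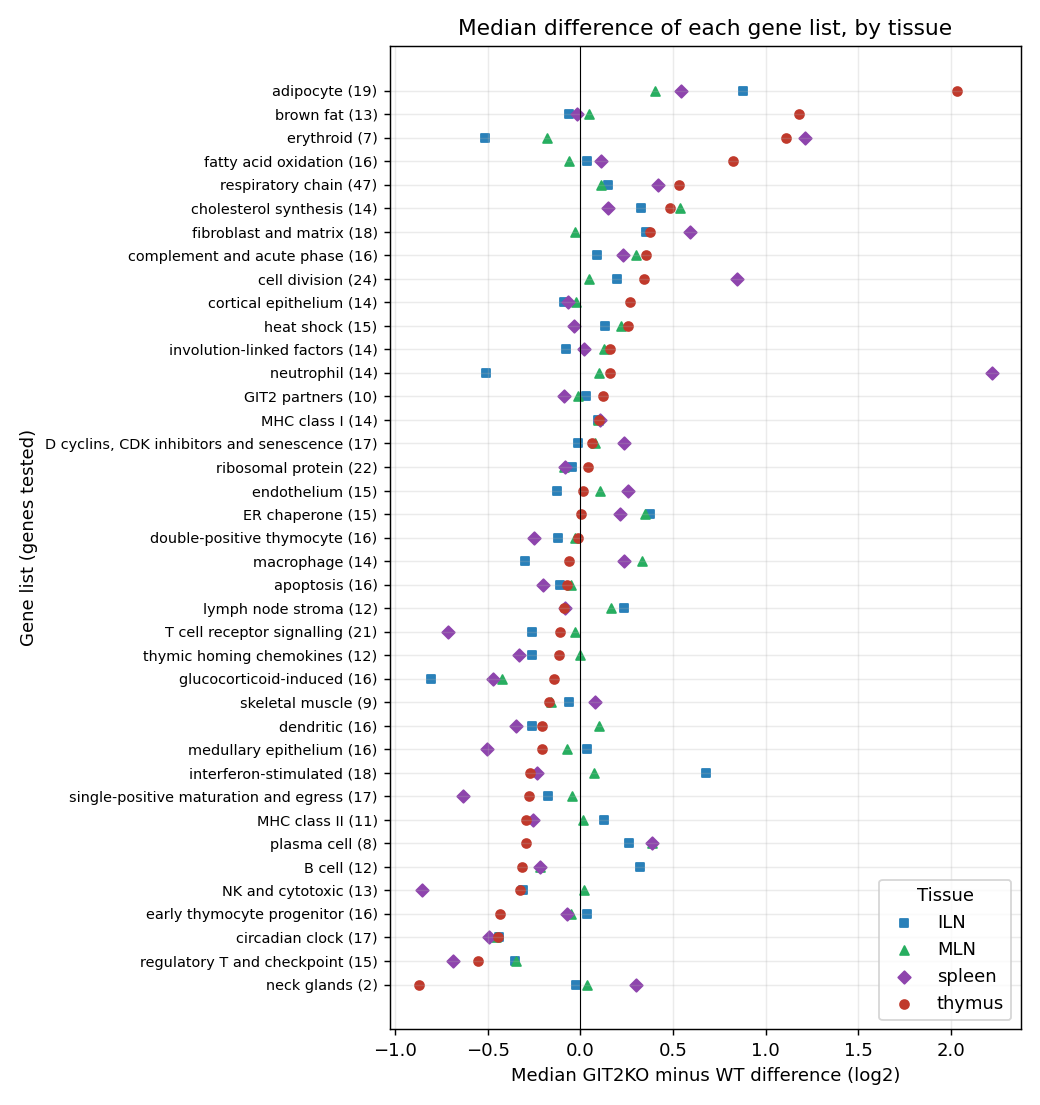
Median GIT2KO minus WT difference (horizontal axis, log2) of 39 gene lists in thymus, ILN, MLN and spleen, ordered by the thymus median, with the number of genes tested in parentheses. The adipocyte list has the highest thymus median, at 2.03, and the brown fat list is near 0 in ILN, MLN and spleen.

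Stromal and other non-lymphoid genes rose in part. Of 18 fibroblast and matrix genes 4 rose, among them the matrix protein Sparc (8.81, 8.41 and 8.53 in WT to 9.78, 10.21 and 9.58) and the actin-severing Gsn (1.72). The median of this list was 0.38, against 0.36 in ILN, -0.03 in MLN and 0.59 in spleen. Of 15 endothelial genes Cav1, the caveolae protein also high in fat cells, rose by 1.89, and Pecam1 did not pass at its brightest probe (-0.30) but fell by 0.98 at its second. Of 7 erythroid genes 3 rose, none fell and 4 did not pass. The list mean was 8.16, 8.60 and 6.59 in GIT2KO and 5.83, 6.78 and 5.76 in WT, with overlap. The beta globin Hbb-b2 was 10.25, 10.90 and 6.68 in GIT2KO and undetected in WT thymus. Alas2, the haem synthesis enzyme of red cells, was 9.59, 10.87 and 6.00 against 5.40, 7.81 and 5.28. Hbb-b2 also rose by 3.75 in spleen (adjusted p = 0.0004067). In ILN its mean was 5.96 in GIT2KO and 4.92, below detection, in WT. Hba-a1 went the other way there, at 10.53 in GIT2KO and 12.33 in WT, and neither ILN difference passed. The Hbb-b2 signal thus did not follow that of Hba-a1 in every tissue. Globin genes have near-identical copies that a probe may also read. Pth, parathyroid hormone, was 12.52, 11.20 and 5.99 in WT and 9.74, 6.31 and 8.60 in GIT2KO, and Tg, the thyroid protein thyroglobulin, was not detected. Of 9 skeletal muscle genes 1 rose.

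Among 24 cell division genes 2 rose, the helicase subunit Mcm3 (1.02) and the nucleotide synthesis enzyme Tyms (0.95), a share near the 6.96% of all genes. Leaving out any thymus sample but WT replicate 1 ended both calls. The median was 0.34, and 0.09 without WT replicate 3. WT replicate 3 had the lowest list mean, at 8.65, against 9.29 to 9.64 in the other 5 thymus samples. Of 16 apoptosis genes 1 passed, Bmf, a death-inducing BH3 protein, which fell by 1.05.

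Clock genes fell in thymus, and Per1, Tef and Dbp also fell in each of the other 3 tissues. Of 17 clock genes 6 fell and 1 rose, with a median of -0.44 in thymus and medians of -0.49 to -0.44 in the other tissues, and none differed from the other tissues. The clock repressor Per2 was 7.26, 6.95 and 7.24 in GIT2KO and 8.47, 8.36 and 8.34 in WT, and its second probe differed by -0.48 without passing. The repressors Per1, Nr1d2 and Ciart fell by 1.18, 0.92 and 0.87, and the PAR bZIP factors Tef and Dbp by 1.16 and 1.12. Nfil3, which binds the same D-box sites as a repressor, rose by 1.03, while the activator Arntl did not pass and Clock passed only at its dimmer probe (0.66). The CLOCK and ARNTL proteins activate through the E-box CACGTG. Of the 6 genes that fell, 5 were found in the RefSeq promoter table, and 3 of these held this motif in the 250 bases before a listed start, a palindrome read alike on both strands. Over all 32851 promoters of the table, 6.02% held it. The 3 sequences, from RefSeq on GRCm38.p6, are shown 5′ to 3′ on the gene's strand, with the motif in capitals, because they are the ones among these clock genes that hold it. They lie at chr3:95882229-95882478 (minus strand) for Ciart, chr11:69098699-69098948 (plus strand) for Per1 and chr15:81802423-81802672 (plus strand) for Tef.
Ciart: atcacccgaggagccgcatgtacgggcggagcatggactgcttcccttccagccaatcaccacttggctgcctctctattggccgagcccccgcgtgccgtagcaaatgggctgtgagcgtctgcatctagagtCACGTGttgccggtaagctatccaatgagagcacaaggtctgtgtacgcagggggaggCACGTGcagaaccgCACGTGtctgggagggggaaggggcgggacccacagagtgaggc
Per1: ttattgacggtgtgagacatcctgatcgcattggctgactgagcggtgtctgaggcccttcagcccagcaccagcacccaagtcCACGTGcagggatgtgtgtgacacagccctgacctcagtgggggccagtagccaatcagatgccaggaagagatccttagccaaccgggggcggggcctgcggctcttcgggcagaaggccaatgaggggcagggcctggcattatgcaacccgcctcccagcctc
Tef: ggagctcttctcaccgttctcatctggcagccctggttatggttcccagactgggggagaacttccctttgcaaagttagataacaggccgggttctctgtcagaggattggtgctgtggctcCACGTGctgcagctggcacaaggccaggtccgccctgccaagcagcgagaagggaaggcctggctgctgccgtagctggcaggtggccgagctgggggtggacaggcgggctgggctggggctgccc
A match describes the letters only. Ciart held 3 matches, Per1 had 1 in 1 of 2 listed promoters and Tef had 1 in each of 2, and the falls of the 3 genes in thymus were of like size.

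Genes called in thymus were spread over the genome. Between 11.4% of tested genes on chromosome 18 and 21.3% on chromosome 17, which carries the MHC, were called, leaving out chromosome Y with 8 genes tested. The 90 genes that differed from the other tissues were 0.857% of all genes. They were 14 of 845 tested genes on chromosome 7, 9 of 642 on chromosome 4 and 9 of 536 on chromosome 17, with the rest on other chromosomes. Within 10 Mb of Git2 on chromosome 5, 35 of 170 other genes were called (20.6%), 10 higher and 25 lower. Over all genes 6.96% rose and 9.17% fell. Of the 35, 3 differed from the other tissues, among them Oas1b, an antiviral enzyme of the interferon response that fell by 1.05 at its brighter probe.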

How the data were processed

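Total RNA of 27 samples in 9 groups of 3 was run on 31 Illumina MouseRef-8 arrays, and repeat arrays of a sample were averaged. The deposited intensity values are bead-summarized probe signals that the authors exported from GenomeStudio 2011.1 without normalization, and the detection p-value of each probe was computed by the authors from negative control beads. A deposited table of scores, log10 signals z-transformed per array by the authors, served only as an alternative. Signals were background-corrected with the detection p-values and quantile-normalized (neqc, offset 16), and probes with detection p under 0.05 on 3 or more arrays were kept, 15291 in all. Gene names came from the platform annotation: 23978 probes had 1 symbol and 1719 none. The number of arrays limits the precision.

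Groups were compared with limma 3.58.1 (R 4.3.3) over all 9 groups with Benjamini-Hochberg adjustment, as GIT2KO minus WT in thymus and as that difference minus the mean of those in ILN, MLN and spleen. Each gene was represented by its brightest tested probe, averaged over all samples. Named were the 12 genes per direction with the largest called thymus differences, the 12 per direction with the largest differences against the other tissues among genes called in both, members of 39 gene lists, and Git2. Members and lists were chosen with earlier results of these data known. The labels tie the 4 tissues to 6 animals, and deviations of thymus and another tissue of 1 animal correlated at a median of 0.1 (n = 18 pairs), against -0.0376 between animals (n = 36). Alternatives covered background correction, scaling, filters, blocks, an adipocyte covariate, the methods' t-test and leaving out each sample. The test was tried on simulated data.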

Additional observations from a re-analysis of the deposited data

Results flagged for a closer look

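Of 175 transcripts followed through the alternative settings, 41 had a thymus difference that differed from the mean of those in ILN, MLN and spleen. This was tested in the limma fit at an adjusted p under 0.05, which 1.08% of all tested transcripts passed. The 24 genes named by size against the other tissues were chosen because they passed this test. Some others were chosen after their values were seen, so the count of 41 follows in large part from the choice. The excess of the thymus over the other tissues was positive for 22 and negative for 19, in log2 units, with 3 samples per group in each tissue.

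Among those above the other tissues, the excess was 3.84 for Ucp1, 3.62 for Hba-a1, 3.42 for H2-Bl, 2.89 for Cox7a1, 2.87 for Fabp3, 2.70 for Pdk4, 2.30 for Pisd-ps2, 2.25 for Slc5a9 and 2.17 for Gpd1. It was 2.03 for Kng1, 2.02 for Rasl12, 1.79 for Acot11, 1.70 for Cbr3, 1.64 for H2-T10, 1.36 for Cd248, 1.17 for Serpinb3d, 1.12 for H2-K1 and 0.62 for Rps6. It was 1.36 for Cebpa and 0.88 for H2-Q2, and 1.10 for Cd3g and 0.65 for Cd3e, which were not called in thymus.

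Among those below the other tissues, the excess was -4.48 for Gm525, -3.82 for Wnt8b, -3.49 for Fxyd2, -2.33 for Cryba2, -2.13 for Aqp11, -1.65 for Siglech, -1.58 for Spink8, -1.53 for Scnn1g and -1.32 for Fbxo27. It was -1.25 for Msln, -1.22 for Gbp5, -1.14 for Mgst2, -1.02 for Ly6d, -0.97 for Thumpd1, -0.92 for Oas1b, -0.92 for Tbx19 and -0.62 for Nnt. For 2 probes of Git2 it was -1.42 and -1.40.

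The Hba-a1 value is not exact, since its spleen levels of 14.54 to 14.65 lay at the top of the scale, and that of Thumpd1 rests on falls to below detection in thymus and spleen. Ucp1, Fabp3, Slc5a9, Wnt8b, Cryba2, Scnn1g and Spink8 were undetected in ILN, MLN and spleen, so their excess largely repeats the thymus difference. Gm525 and Fxyd2 fell in thymus and had positive differences in each of the other 3 tissues, and Pdk4 rose in thymus and had negative ones, at the brightest probe of each. Of these, the ILN difference of Fxyd2, the MLN difference of Gm525 and the ILN and MLN differences of Pdk4 did not pass. The excess for Rps6, a ribosomal protein, passed narrowly (adjusted p = 0.04994). Nnt, the mitochondrial transhydrogenase, was not detected on any GIT2KO thymus array. Its WT levels of 5.57, 5.59 and 5.42 were themselves near the lowest detected signal, and its fall was at least 1.14-fold.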

How the results depend on the processing

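The count of 2640 transcripts called in thymus became 1339 with median scaling, 442 with the adipocyte list mean as a covariate, 726 when a 2-fold difference was also asked, and 4595 unadjusted or 428 after Benjamini-Hochberg adjustment by the methods' t-test. The count of 165 differing from the other tissues became 85 with that covariate, 323 with a replicate block by animal and 454 against spleen alone, and the count of 141 became 66 with that covariate. Leaving out each sample in turn gave 1299 (without WT replicate 3) to 2438 for the first count, and 95 to 249 and 80 to 225 for the others (without GIT2KO replicate 2 and 3 of the thymus). With the replicate number as a block among the 6 thymus samples the first count was 3312, against 3155 without it. Numbers there pair no animals, and same-numbered samples correlated at 0.0519, 0.122 and 0.179. With the covariate, Myl1 (-0.87), Pdk4 (-0.20) and Adipoq (-0.94) changed direction without passing. Adipoq is itself an adipocyte gene, so its value in that fit is not independent of the covariate. Of the 175 transcripts followed through these settings, not all of them named here, 143 were called in thymus. Of the 143, 43 passed in all the settings each was run in and 100 did not in at least 1.

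List medians moved without background correction for cortical epithelium (0.179) and the clock (-0.332). With z values per array they moved for early progenitors (-0.234), receptor signalling (-0.223), regulatory T cells (-0.24), cortical epithelium (0.168), muscle (0.00345), D cyclins (-0.149), heat shock (0.137), clock (-0.315) and ribosomal proteins (-0.178). With all probes of the members they moved for double-positive thymocytes (0.108), regulatory T cells (-0.229), ER chaperones (-0.114), cholesterol synthesis (0.69) and GIT2 partners (-0.0988). Leaving out each thymus sample gave -0.431 to -0.215 for early progenitors, -0.14 to -0.0582 for receptor signalling, -0.513 to -0.278 for regulatory T cells, 0.171 to 0.331 for cortical epithelium, -0.243 to -0.0178 for muscle, -0.0758 to 0.111 for D cyclins, -0.139 to -0.0468 for apoptosis, -0.169 to 0.218 for MHC class I, -0.587 to -0.249 for the clock and -0.0124 to 0.17 for GIT2 partners. The causes were not tested.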
